A study of Mus musculus with 123 samples.

Results

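The 42 genes described here encode the chains of 2 families of extracellular matrix proteins, with 33 collagen chains and 9 laminin chains among the 13053 genes measured. They were taken by gene symbol alone, as every symbol of the platform annotation made of Col, a number, the letter a and a number, or of Lama, Lamb or Lamc and a number. The choice of genes reads symbols and no measured value, though it was made with earlier results of these data known. Of several probe sets for a gene, the one brightest on average over all arrays was used, which is a choice by measured signal. Whole lungs of BALB/c mice, 61 naive and 62 sensitized to OVA (ovalbumin, a protein of egg white), were profiled in a model of allergic asthma with 1 Affymetrix array and a separate animal number per mouse. Lungs were taken at 0, 2, 6, 24, 48, 72, 96 and 168 h after a challenge. Naive groups held 8 mice at 0, 6, 24, 72 and 168 h and 7 mice at 2, 48 and 96 h, and sensitized groups held 8 mice except at 24 h, where there were 6. By the design text both arms received an OVA challenge, but naive samples have PBS in their titles, so the agent given to the naive mice is not settled. No source used here says whether the 0 h lungs were taken before or right after a challenge, and none gives the ages or sexes of the mice, the adjuvant or the number of sensitizing doses.

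Collagens are secreted as triple helices of chains and fall into groups by the structure they build: fibrils, beaded filaments, sheets, molecules that sit on fibrils, and membrane-bound forms. Laminins are cross-shaped heterotrimers of an alpha, a beta and a gamma chain, and with the collagen IV network they form basement membranes, the thin sheets under epithelium, endothelium and smooth muscle. In the lung, the fused basement membrane between alveolar epithelium and capillary is part of the gas exchange barrier, and deposition of interstitial collagen around airways is a known feature of airway remodelling in asthma.

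Values are log2 array signals, and a difference is the sensitized mean minus the naive mean, so that 1 is a 2-fold difference of signal. A gene was called when limma's adjusted p (Benjamini-Hochberg, over all 13053 genes of the contrast) was under 0.05. Array medians lay between 9.32 and 9.44. The lung origin of the RNA was plain in every array: Sftpc, the surfactant protein C gene of alveolar type II cells, did not go below 14.19, and Ager, a marker of alveolar type I cells, did not go below 14.02. Of the arrays, 6 carried a high level of squamous epithelium genes and 9 of skeletal muscle genes, 10 arrays in all. Results for the 42 genes that hinge on these arrays are given with and without them. The signal of the 3′ actin control minus that of the 5′ one, which tracks RNA quality, was lower in sensitized mice at 6 h (-0.18, adjusted exact permutation p = 0.0224) and 24 h (-0.13, adjusted exact permutation p = 0.0224) and higher at 168 h (0.29, adjusted exact permutation p = 0.0319). In whole lung, fewer cells of a type and less RNA per cell cannot be told apart.

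Matrix chain genes differed between the arms in both directions at once, as did genes at large. At 24 h, 8 of the 42 genes were higher in sensitized lungs, beside 22.8% of all genes, and 15 were lower, beside 24.9% of all genes. The lower side was fullest at 6 h, when 20 members were lower and 4 higher, beside 33.2% and 24.6% of all genes. At 48 h, 13 were lower and 6 higher (all genes: 18.1% and 17%), and at 72 h, 14 were lower and 8 higher (all genes: 26.3% and 22.2%). By 96 h the counts were 8 lower and 7 higher (all genes: 20.8% and 21.2%). The ends of the series held few differences. At 0 h, 4 members were lower and 4 higher (all genes: 12.3% and 14.2%), at 2 h 1 was lower (all genes: 1.92%), and at 168 h 1 was lower and 1 higher (all genes: 1.41% and 3.4%). Without sensitized replicate 6 the count at 0 h was 4, and without sensitized replicate 1 it was 5. Together the 9 laminin chains leaned to the lower side, with 6 lower and 2 higher at 6 h and 6 lower and 1 higher at 24 h, beside the shares of all genes given for these times.

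**Figure D1:**
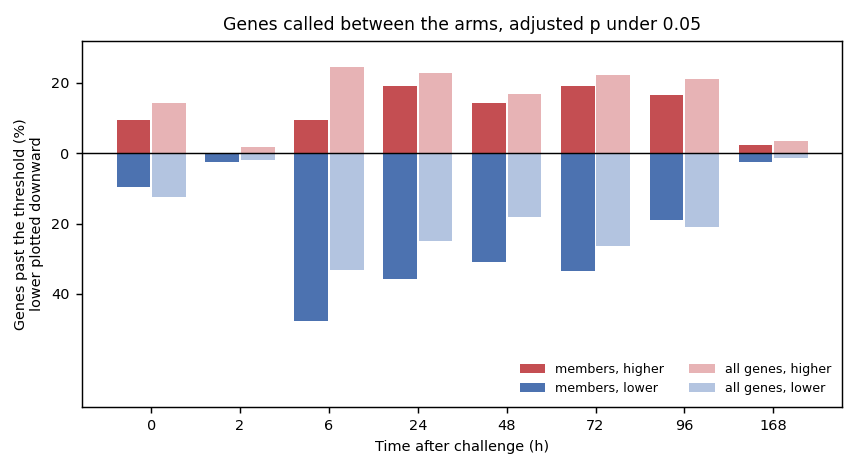
Share of the 42 collagen and laminin chain genes (dark bars) and of all 13053 genes (pale bars) with an adjusted p under 0.05 at each time in hours, with genes higher in sensitized mice plotted upward and genes lower plotted downward, in percent. The downward dark bar was the longest at 6 h, where 20 of 42 members were lower.

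Differences were modest in size. Over the 336 combinations of member and time, 38 were called higher and 76 lower, and the absolute differences called ran from 0.12 to 1.13. Counts pooled over times in this paragraph have no share of all genes beside them, so no lean of the members is read from them. Shares of all genes at single times are given above. Of the called combinations, 2 reached an absolute difference of 1, and both belonged to Col12a1. The median difference over all members was -0.14 at 6 h, beside -0.04 over all genes, and -0.09 at 24 h, beside -0.02 over all genes. At no time were 7 members called, namely Col18a1, Col25a1, Col27a1, Col2a1, Col5a1, Col6a3 and Col7a1. Another 11 were called higher at 1 time or more and never lower, 22 were called lower and never higher, and Col14a1 and Lamc3 were called in both directions. Some of the called members were dim. Col17a1, Col22a1, Col4a6, Col5a3, Col6a4, Col9a3, Lama1 and Lamc3 had mean signals from 6.72 to 8.50, under the lower quartile of gene means at 8.55.

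**Figure D2:**
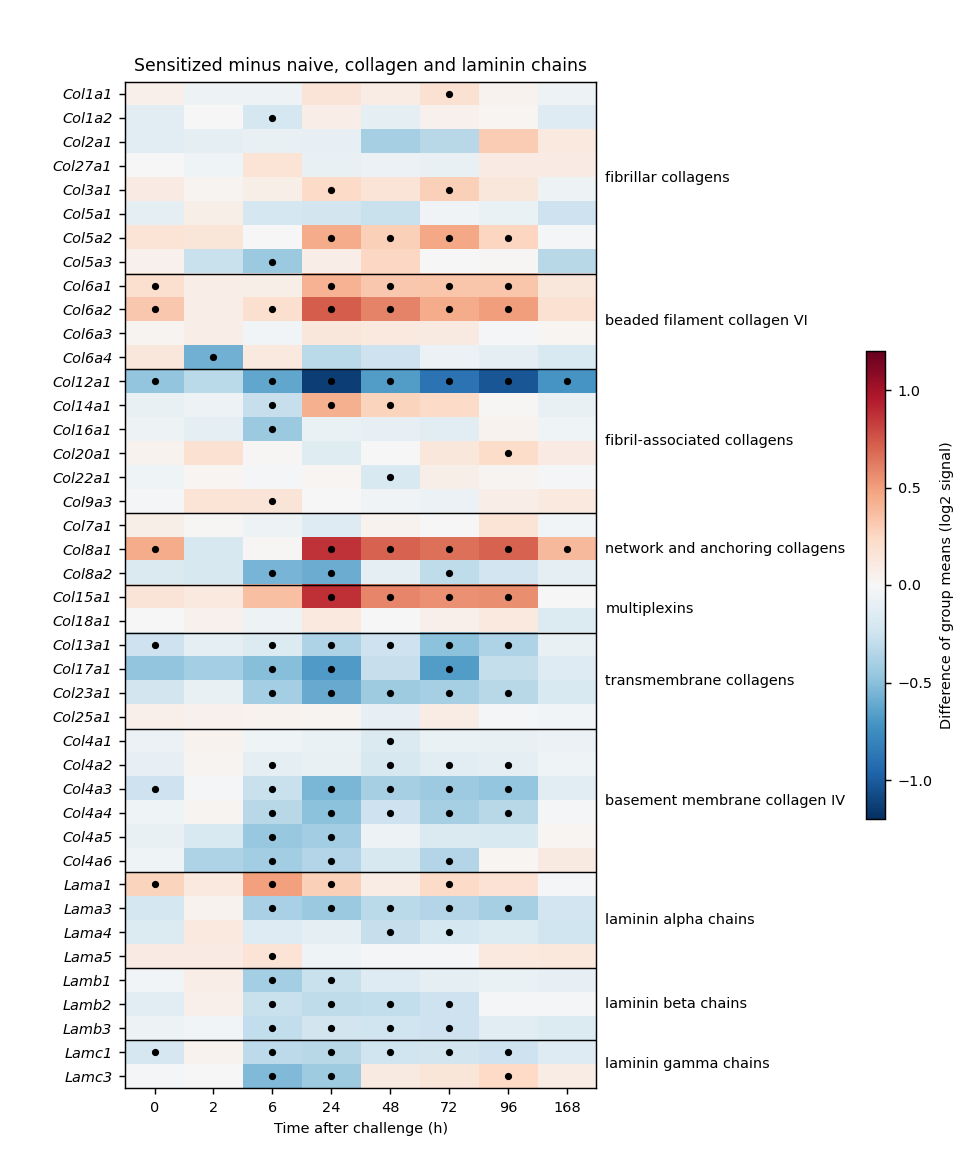
Sensitized minus naive difference of log2 signal for each of the 42 genes (rows, grouped by protein class) at each time in hours (columns), red where sensitized mice were higher and blue where they were lower, with a dot where the adjusted p was under 0.05. Over 24 to 96 h Col8a1, Col15a1 and Col6a2 stay red and Col12a1, Col4a3 and Col4a4 stay blue, while Lamc3 turns from blue at 24 h to red at 96 h.

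Among the fibrillar collagens, which build the banded fibres that give tissue its tensile strength, the minor chain Col5a2 differed most. Its product joins collagen I and III fibrils and limits their width. At 24 h, Col5a2 ran from 12.23 to 12.48 in the 6 sensitized mice (median 12.34) and from 11.69 to 12.09 in the 8 naive mice (median 11.90). Every sensitized mouse lay above every naive mouse, and the difference was 0.45 (SE 0.11, adjusted p = 0.000546). At 72 h the difference was 0.47 (SE 0.10, adjusted p = 9.94e-05), and Col5a2 was also higher at 48 h by 0.29 and at 96 h by 0.26. Its trimer partner Col5a1 passed the threshold at no time, with differences between -0.26 and 0.07.

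The major fibrillar chains differed less. Col3a1, the single chain of collagen III, ran from 13.61 to 13.77 in sensitized mice at 24 h (median 13.70) and from 13.35 to 13.63 in naive mice (median 13.43). All but 1 of the sensitized mice lay above all naive mice, and the difference was 0.23 (SE 0.08, adjusted p = 0.0102). At 72 h it was 0.29 (SE 0.07, adjusted p = 0.000548). For collagen I, the bulk collagen of most connective tissue, Col1a1 was higher at 72 h alone (0.19, SE 0.07, adjusted p = 0.0167), where 7 of 8 sensitized mice lay above all naive mice. Col1a2 was called once, lower at 6 h (-0.21, SE 0.09, adjusted p = 0.0285). Of the 8 fibrillar genes, 2 were lower at 6 h (all genes: 33.2%) and 3 higher at 72 h (all genes: 22.2%), and the class median stayed between -0.07 and 0.08 at all times.

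Collagen VI forms beaded filaments that link cells and basement membranes to the surrounding fibrils, from heterotrimers in which the Col6a1 and Col6a2 chains are both needed. The start regions of these neighbouring genes on chromosome 10 are shown because both were higher together, with the 250 bases before each RefSeq start (build GRCm38.p6, 5′ to 3′ on the minus strand, the strand of both genes). Capitals mark matches to the GC box GGGCGG on either strand. The Col6a1 window is chr10:76726045-76726294 and the Col6a2 window is chr10:76623631-76623880, both upstream of the gene.
Col6a1: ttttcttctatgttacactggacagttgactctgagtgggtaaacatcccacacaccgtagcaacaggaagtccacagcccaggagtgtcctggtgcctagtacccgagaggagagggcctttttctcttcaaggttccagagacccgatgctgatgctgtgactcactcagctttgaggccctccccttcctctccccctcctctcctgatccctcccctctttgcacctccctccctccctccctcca
Col6a2: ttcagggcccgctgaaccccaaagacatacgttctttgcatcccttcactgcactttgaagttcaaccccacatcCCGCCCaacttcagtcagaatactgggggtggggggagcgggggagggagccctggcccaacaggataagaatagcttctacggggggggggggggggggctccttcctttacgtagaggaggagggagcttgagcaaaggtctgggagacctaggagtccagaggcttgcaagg
The Col6a2 window holds 1 such match and the Col6a1 window none, and 32.7% of all 32851 promoter windows of this length hold at least 1.

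Col6a2 had the smallest adjusted p of all 42 genes at 24 h. Its signal ran from 13.23 to 13.34 in sensitized mice (median 13.28) and from 12.41 to 12.76 in naive mice (median 12.53). No sensitized mouse came near the highest naive mouse, and the difference was 0.72 (SE 0.09, adjusted p = 4.46e-11), a 1.65-fold higher signal. Col6a1 ran from 13.04 to 13.21 in sensitized mice at 24 h (median 13.12) and from 12.57 to 12.85 in naive mice (median 12.72). These groups were separate too, with a difference of 0.42 (SE 0.07, adjusted p = 9.5e-08). Both genes stayed higher at 48, 72 and 96 h, by 0.44 to 0.60 for Col6a2 and by 0.33 for Col6a1 at each of the 3 times. Full separation of the groups was seen for both genes at 48 and 96 h but not at 72 h.

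Both collagen VI genes also differed at 0 h. Col6a1 ran from 12.87 to 13.18 in sensitized mice (median 12.95) and from 12.75 to 12.84 in naive mice (median 12.79). All 8 sensitized mice were above all 8 naive mice, which held for 1.98% of all genes at that time. The difference was 0.20 (SE 0.06, adjusted p = 0.013), and it was 0.17 with an adjusted p of 0.0527 without either sensitized replicate 1 or sensitized replicate 6. Col6a2 was higher at 0 h by 0.33 (SE 0.08, adjusted p = 0.00209). At 6 h its difference of 0.20 was called (adjusted p = 0.0356), and it was 0.18 with an adjusted p of 0.0789 without the arrays high in squamous epithelium genes. The remaining measured chains did not follow: Col6a3, the third chain of the classical trimer, differed by -0.03 to 0.14 and was called at no time, and Col6a4 was called once, lower at 2 h (-0.58, SE 0.16, adjusted p = 0.0212), with an adjusted p of 0.0577 from limma on the 2 h groups alone.

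The fibril-associated collagens attach to the surface of collagen I and III fibrils. Col12a1, one of them, was the gene with the largest differences and the most times called, lower in sensitized mice at 7 of the 8 times. At 24 h it ran from 8.29 to 8.98 in sensitized mice (median 8.73) and from 9.51 to 10.04 in naive mice (median 9.84). The groups lay far apart, with a difference of -1.13 (SE 0.15, adjusted p = 1.04e-09), a 2.19-fold lower signal. At 96 h the difference was -1.03 (SE 0.15, adjusted p = 1.27e-08), and the groups did not overlap at 24, 48, 72, 96 or 168 h.

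At 168 h Col12a1 was the only member called lower, by 0.71 (SE 0.14, adjusted p = 0.000437). All 8 sensitized mice were below all naive mice, which held for 0.115% of all genes at that time, and naive replicate 4 stood apart from its group at 11.15. In a fit on these 2 groups alone, the adjusted p was 0.0572. At 0 h the difference of -0.48 (SE 0.14, adjusted p = 0.00842) became -0.38 with an adjusted p of 0.0557 without sensitized replicate 6. A second probe set of Col12a1 gave smaller differences, -0.24 at 24 h and -0.29 at 96 h, and 0.06 at 0 h.

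Col14a1, a related fibril-associated chain, changed direction within a day. At 6 h it was lower in sensitized mice (-0.27, SE 0.11, adjusted p = 0.0223). At 24 h it ran from 10.82 to 11.13 in sensitized mice (median 11.01) and from 10.41 to 10.76 in naive mice (median 10.59). Every sensitized mouse was then above every naive mouse, by 0.43 on average (SE 0.11, adjusted p = 0.0012), and at 48 h the gene was higher by 0.27 (SE 0.11, adjusted p = 0.045). The other 4 members of the class were each called once: Col16a1 lower (-0.44) and Col9a3 higher (0.15) at 6 h, Col22a1 lower (-0.18) at 48 h and Col20a1 higher (0.22) at 96 h. The Col9a3 call was lost with the mean over its probe sets (adjusted p = 0.0585 from limma) and in a limma fit on the 6 h groups alone (adjusted p = 0.101), and the two-sided exact permutation test gave an unadjusted p of 0.0702.

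Collagen VIII is a short-chain collagen that forms hexagonal sheets, best known from the cornea and from remodelling vessel walls. Its chains went opposite ways. The 250 bases before the start of Col8a1 (chr16:57754738-57754987, minus strand, GRCm38.p6) are shown because this gene had the smallest p of the sensitization by time interaction, and they hold 4 GC box matches, in capitals.
Col8a1: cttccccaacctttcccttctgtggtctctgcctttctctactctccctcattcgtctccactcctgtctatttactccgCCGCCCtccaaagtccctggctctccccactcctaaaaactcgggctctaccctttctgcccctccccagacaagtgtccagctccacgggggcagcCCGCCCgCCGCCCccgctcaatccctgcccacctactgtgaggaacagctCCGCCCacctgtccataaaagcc
Over the 29 members with a promoter window, 18 held a GC box match, 12 the CCAAT box (33.8% of all windows) and 3 the TATA box TATAAA (12.4% of all windows), on either strand. These matches describe the letters of the windows only.

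Col8a1 ran from 10.34 to 10.76 in sensitized mice at 24 h (median 10.48) and from 9.20 to 9.92 in naive mice (median 9.66). The groups were separate, with a difference of 0.86 (SE 0.13, adjusted p = 1.63e-08), a 1.82-fold higher signal. They were also separate at 48, 72 and 96 h, with differences of 0.71, 0.66 and 0.71. At 0 h Col8a1 was already higher, by 0.45 (SE 0.12, adjusted p = 0.00327), and 5 of 8 sensitized mice lay above all naive mice. At 2 h the difference was -0.20 and did not pass the threshold. At 168 h it was 0.39 (SE 0.12, adjusted p = 0.0363) with groups that overlapped fully, and the call was lost when any 1 of 3 naive mice (replicates 2, 5 and 8) or 6 sensitized mice (replicates 1, 2, 3, 4, 5 and 7) was left out, with differences of 0.29 to 0.37 and adjusted p from 0.0648 to 0.133. A second probe set of Col8a1 gave 0.29 at 24 h.

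Col8a2 ran from 8.18 to 8.72 in sensitized mice at 24 h (median 8.50) and from 8.81 to 9.45 in naive mice (median 8.96). It was lower in every sensitized mouse than in any naive mouse, by 0.59 on average (SE 0.11, adjusted p = 3.61e-06). The gene was also lower at 6 h (-0.56, SE 0.10, adjusted p = 1.37e-06) and at 72 h (-0.30, SE 0.10, adjusted p = 0.00943).

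Col15a1 and Col18a1 encode the multiplexins, proteoglycans at the outer face of basement membranes whose tail fragments are known to restrain vessel growth. Col15a1 ran from 10.21 to 10.67 in sensitized mice at 24 h (median 10.45) and from 9.27 to 9.74 in naive mice (median 9.54). All 6 sensitized mice were clear of the naive range, and the difference of 0.87 (SE 0.24, adjusted p = 0.00154) was the highest of any member. Later differences were 0.59 at 48 h, 0.55 at 72 h and 0.56 at 96 h, with adjusted p between 0.0331 and 0.0414, and each of these calls was lost when single mice were left out. At 48 h this held for naive replicates 4, 5 and 6 and sensitized replicates 2, 3 and 6 (differences 0.54 to 0.58, adjusted p 0.0527 to 0.0733), and without the arrays high in skeletal muscle genes the adjusted p was 0.0509. At 72 h it held for naive replicates 2, 5 and 7 and sensitized replicates 3, 4, 6 and 7 (0.46 to 0.53, adjusted p 0.0509 to 0.0926), and at 96 h for naive replicates 2, 3, 4, 5 and 6 and sensitized replicates 2, 3, 4 and 8 (0.52 to 0.58, adjusted p 0.0503 to 0.0746). The two-sided exact permutation test, adjusted over members and times, gave p = 0.00497 at 48 h, 0.0486 at 72 h and 0.00544 at 96 h for Col15a1. Above all naive mice lay 7 of 8 sensitized mice at 48 h and 6 of 8 at 72 and 96 h, with 1 below them all at 72 h. Col18a1, the endostatin precursor, was called at no time, with differences between -0.16 and 0.12.

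**Figure D3:**
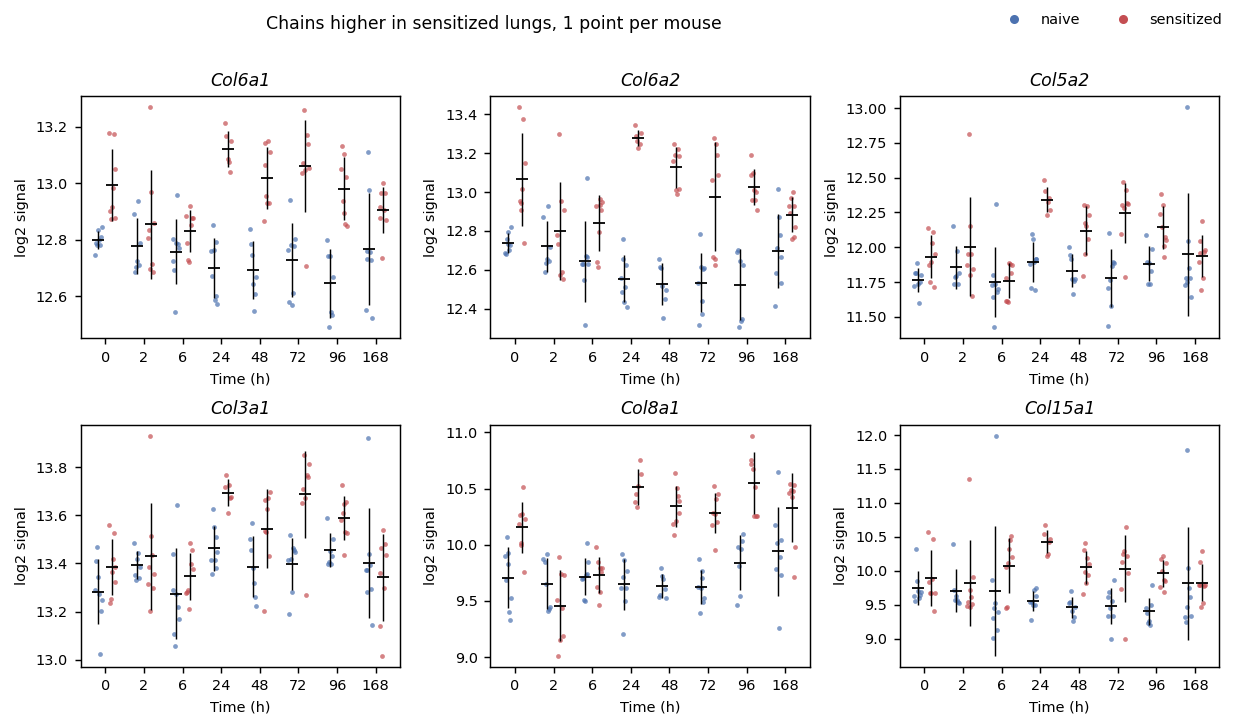
Log2 signal of Col6a1, Col6a2, Col5a2, Col3a1, Col8a1 and Col15a1 in each mouse at each time in hours, naive in blue and sensitized in red, with the group mean (horizontal bar) and SD (vertical bar). From 24 to 96 h the red points of Col6a2 and Col8a1 sit above most or all blue points, while at 2 and 6 h the colours mix.

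Transmembrane collagens sit in the cell membrane, mostly of epithelial and mesenchymal cells. Of the 4 measured, Col13a1, Col17a1 and Col23a1 were lower and Col25a1 was called at no time. Col13a1 ran from 10.12 to 10.70 in sensitized mice at 72 h (median 10.50) and from 10.86 to 11.10 in naive mice (median 10.95). The groups were separate, by -0.49 (SE 0.07, adjusted p = 7.52e-10), and the gene was lower at 6 of the 8 times. Col23a1 ran from 9.75 to 10.14 in sensitized mice at 24 h (median 10.05) and from 10.35 to 10.79 in naive mice (median 10.67), again without overlap (-0.60, SE 0.10, adjusted p = 2e-07).

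Col17a1, the hemidesmosome collagen of basal and squamous epithelial cells, ran from 6.49 to 7.15 in sensitized mice at 72 h (median 6.85) and from 7.32 to 7.70 in naive mice (median 7.49). The groups did not overlap, and the difference was -0.67 (SE 0.19, adjusted p = 0.0019). It was also lower at 24 h (-0.68, SE 0.20, adjusted p = 0.00339). At 6 h it was lower by 0.51 (SE 0.19, adjusted p = 0.0145), but naive replicate 1, an array with high squamous epithelium genes, stood at 8.54, above the next mouse at 7.50. In a fit on the 6 h groups alone the adjusted p was 0.10, and the two-sided exact permutation test gave an unadjusted p of 0.0763.

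Collagen IV is the sheet-forming collagen of basement membranes and is made from 6 genes that lie head to head in 3 pairs. Col4a1 and Col4a2 are the ubiquitous pair, and Col4a3, Col4a4 and Col4a5 chains form the network of mature glomerular and alveolar basement membrane. All collagen IV calls were on the lower side, with 5 of 6 genes lower at 6 h (all genes: 33.2%) and 4 of 6 at 24, 48 and 72 h (all genes: 24.9%, 18.1% and 26.3%). RefSeq places the starts of Col4a1 and Col4a2 21 bases apart on chromosome 8, those of Col4a4 and Col4a3 72 bases apart on chromosome 1, and those of Col4a6 and Col4a5 1343 bases apart on chromosome X, all in build GRCm38.p6. The Col4a3 start is that of its gene record, and the other starts are those of promoter windows. Gene records overlap by 85 bases for Col4a1 and Col4a2 and by 114 bases for Col4a4 and Col4a3.

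Col4a3 and Col4a4 gave the larger and longer differences of the class. Col4a3 ran from 11.98 to 12.57 in sensitized mice at 24 h (median 12.40) and from 12.73 to 12.94 in naive mice (median 12.86). Groups were separate at 24, 48 and 72 h, and the difference at 24 h was -0.55 (SE 0.08, adjusted p = 3.55e-08). At 96 h it was -0.47 (SE 0.08, adjusted p = 1.17e-06). Col4a4 ran from 11.94 to 12.33 in sensitized mice at 24 h (median 12.06) and from 12.39 to 12.70 in naive mice (median 12.64). These groups were separate as well, by -0.49 (SE 0.07, adjusted p = 2.58e-08). Col4a4 was lower at every time from 6 to 96 h, by 0.25 to 0.49. At 0 h Col4a3 alone of the class was called, at -0.25 (SE 0.08, adjusted p = 0.01), and at -0.18 with an adjusted p of 0.088 without sensitized replicate 6, while Col4a4 stood at -0.05.

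Col4a1 and Col4a2 differed by less. Col4a2 ran from 13.21 to 13.52 in sensitized mice at 48 h (median 13.44) and from 13.54 to 13.71 in naive mice (median 13.58). The groups did not overlap although the difference was only -0.19 (SE 0.05, adjusted p = 0.00087), and Col4a1 at that time was lower by 0.17 (SE 0.05, adjusted p = 0.00433). Col4a2 was called at 6, 48, 72 and 96 h and Col4a1 at 48 h alone. Col4a5 and Col4a6 were lower early. Col4a5 ran from 10.82 to 11.28 in sensitized mice at 24 h (median 11.15) and from 11.30 to 11.74 in naive mice (median 11.49), a narrow separation of groups that differed by -0.41 (SE 0.09, adjusted p = 8.92e-05). It was also lower at 6 h (-0.46) and at no later time, when differences ran from -0.18 to 0.02. Col4a6 was lower at 6 h (-0.41), 24 h (-0.35) and 72 h (-0.35).

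**Figure D4:**
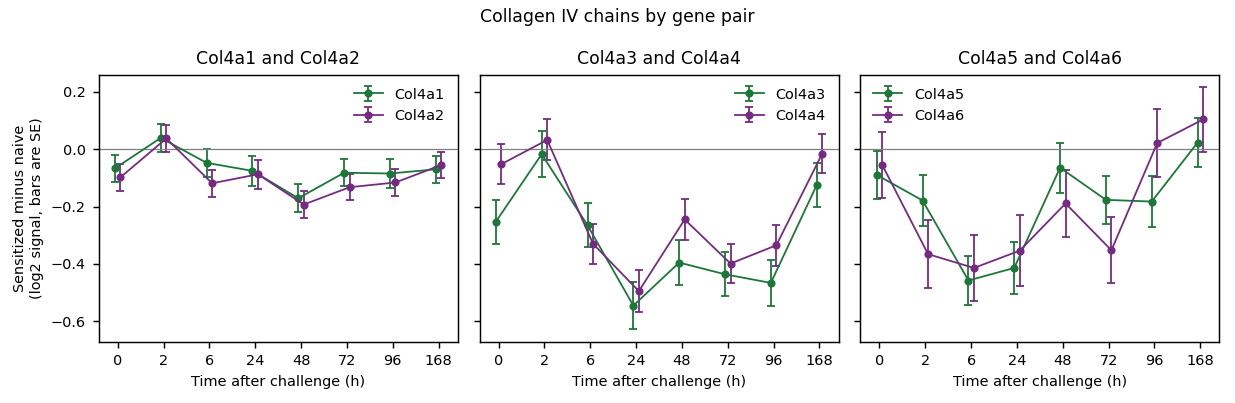
Sensitized minus naive difference of log2 signal for the 3 pairs of head-to-head collagen IV genes at each time in hours, with the SE of the model as bars. The Col4a3 and Col4a4 lines lie between -0.25 and -0.55 from 24 to 96 h, and those of Col4a1 and Col4a2 reach no lower than -0.19.

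Laminin alpha chains differed in direction. Lama3, the alpha chain of epithelial laminins that anchor cells through hemidesmosomes, ran from 11.03 to 11.52 in sensitized mice at 24 h (median 11.35) and from 11.54 to 11.94 in naive mice (median 11.75). The groups just failed to meet, and the difference was -0.45 (SE 0.10, adjusted p = 0.000159). Lama3 was lower at every time from 6 to 96 h, by 0.32 to 0.45, and without sensitized replicate 1 the 48 h difference was -0.24 with an adjusted p of 0.0521. Lama4, the alpha chain of endothelial laminins, was lower at 48 h (-0.28, SE 0.09, adjusted p = 0.0133) and 72 h (-0.21, SE 0.09, adjusted p = 0.0433). Lama5, widespread in mature epithelial basement membranes, was called once, higher at 6 h (0.16, SE 0.07, adjusted p = 0.0443), and without the arrays high in squamous epithelium genes it was 0.13 with an adjusted p of 0.141.

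Lama1, the alpha chain of embryonic laminin, was the laminin gene higher at the most times, at a low mean signal of 7.03 (percentile 6.9 among genes). At 6 h it ran from 6.65 to 7.67 in sensitized mice (median 7.43) and from 6.66 to 7.02 in naive mice (median 6.80). Of the 8 sensitized mice, 6 were above all naive mice and 1 was below them all, and the difference was 0.49 (SE 0.10, adjusted p = 1.07e-05). It was higher also at 24 h (0.29) and 72 h (0.23). At 0 h the difference was 0.27 (SE 0.10, adjusted p = 0.0347), a call lost without any 1 of naive replicates 1, 2, 3, 5 and 6 or sensitized replicates 1, 4 and 6 (0.22 to 0.26, adjusted p 0.051 to 0.116). Without the arrays high in squamous epithelium genes it was 0.23 with an adjusted p of 0.0998.

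All 3 beta chains were lower at 6 and 24 h. Lamb1, the beta chain of most laminins outside muscle and kidney, ran from 11.47 to 12.10 in sensitized mice at 6 h (median 11.68) and from 11.99 to 12.62 in naive mice (median 12.09). Of the sensitized mice, 6 of 8 lay below all naive mice, and the difference was -0.41 (SE 0.07, adjusted p = 7.88e-07). At 24 h it was -0.27 with separate groups, and at later times it was not called. Lamb2 stayed lower from 6 to 72 h by 0.24 to 0.31, and Lamb3, the partner of Lama3 in epithelial laminin, by 0.22 to 0.29.

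Lamc1, the gamma chain shared by most laminins, was lower at 6 of the 8 times. At 24 h it ran from 12.33 to 12.49 in sensitized mice (median 12.45) and from 12.66 to 12.85 in naive mice (median 12.76). The 2 groups were well apart for a small difference of -0.33 (SE 0.07, adjusted p = 2.33e-05). At 0 h it was -0.20 (SE 0.06, adjusted p = 0.011), and -0.16 with an adjusted p of 0.0663 without sensitized replicate 1. Lamc3, a gamma chain of restricted distribution, turned over time: it was lower at 6 h (-0.53, SE 0.10, adjusted p = 1.92e-06) and 24 h (-0.43) and higher at 96 h (0.24, SE 0.10, adjusted p = 0.0475).

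**Figure D5:**
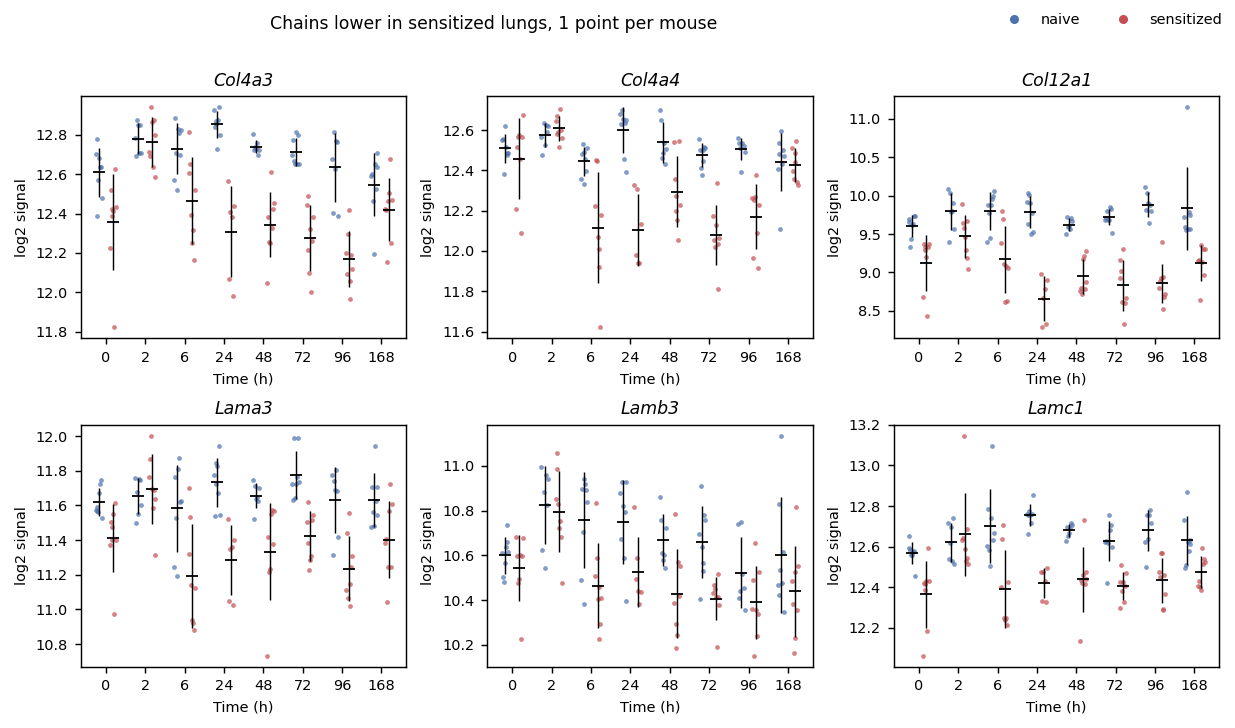
Log2 signal of Col4a3, Col4a4, Col12a1, Lama3, Lamb3 and Lamc1 in each mouse at each time in hours, naive in blue and sensitized in red, with the group mean (horizontal bar) and SD (vertical bar). Red points of Col12a1 lie below all blue points from 24 to 168 h, and Col4a3 and Col4a4 return to within the naive spread at 168 h.

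Groups without any overlap were most frequent at 24 h. At that time 6 members were higher in every sensitized mouse than in every naive mouse, beside 13% of all genes, and 9 were lower, beside 9.11% of all genes. At 48 h there were 3 on the higher and 4 on the lower side (all genes: 5.98% and 4.04%), at 72 h 1 and 7 (all genes: 6.92% and 8.17%), and at 96 h 3 and 3 (all genes: 6.13% and 5.06%). Groups of different size meet this criterion with different ease, and the 24 h groups were the smallest.

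More members passed a test over time in the sensitized arm than in the naive arm, as was also so for all genes. In sensitized mice 39 of 42 members changed over time by the moderated F test, beside 87.8% of all genes, and in naive mice 6 did, beside 38.4% of all genes. The difference between the arms changed with time for 22 members, beside 62.5% of all genes. With array weights the naive count was 20 and the count for the difference was 35. Col8a1 had the smallest adjusted p of this interaction (1.66e-07), before Lamc3 (1.68e-06), Col4a4 (2.51e-06) and Col6a2 (1.11e-05).

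Steps between consecutive times in sensitized mice went mostly up by 2 h, mostly down by 6 h and mostly up by 24 h. From 0 to 2 h, 12 members rose and 4 fell (all genes: 14.2% and 18%). The Lamb1, Lamb2, Lamb3, Lamc1, Lama3 and Lama4 genes all rose, by 0.22 to 0.31, and Col4a3 rose by 0.41 (SE 0.08, adjusted p = 2.08e-05), whereas Col8a1 fell by 0.70 (SE 0.12, adjusted p = 2.87e-06). From 2 to 6 h, 4 rose and 21 fell (all genes: 22.1% and 28.7%). Lamb1 fell by 0.55 (SE 0.07, adjusted p = 5.55e-10), Col4a4 by 0.49 (SE 0.07, adjusted p = 2.55e-09) and Col5a3 by 0.70 (SE 0.15, adjusted p = 4.44e-05).

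From 6 to 24 h, 12 members rose and 6 fell (all genes: 18.5% and 12.9%). Those that rose included fibrillar chains, with Col5a3 up by 0.85 (SE 0.16, adjusted p = 1.51e-05), Col5a2 by 0.58, Col1a1 by 0.47, Col3a1 by 0.35 and Col1a2 by 0.33, together with Col8a1 by 0.78 (SE 0.13, adjusted p = 5.38e-07), Col14a1 by 0.56 and Col6a2 by 0.44. From 24 to 48 h, 6 rose and 3 fell (all genes: 12.9% and 12.3%). Between 48 and 72 h and between 72 and 96 h limma called 0 members, beside 3.99% and 9.35% of all genes called. At an unadjusted p under 0.05 from limma there were 5 and 3 members, beside 19.9% and 25.8% of all genes. From 96 to 168 h, 4 rose and 2 fell (all genes: 18.7% and 14.8%), and Col4a3, Col4a4, Col13a1 and Col4a2 were those that rose, by 0.16 to 0.26.

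Steps in naive mice gave 4 calls in all, with Col1a1 (-0.29) and Col5a3 (-0.53) lower at 6 h than at 2 h, beside 2.72% of all genes, and Col1a1 higher (0.25) and Col27a1 lower (-0.24) at 24 h than at 6 h, beside 5.14% of all genes. This number depended on the setting, with 18 calls under array weights, 1 with the mean over probe sets and 2 without the arrays high in skeletal muscle genes. Col1a1 thus fell between 2 and 6 h in both arms, by 0.29 in each. The naive genes with the smallest adjusted p over time were Col5a3 (0.00248), Col1a1 (0.00592), Col16a1 (0.00953), Col4a3 (0.0134) and Col27a1 (0.0375).

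The change of the difference between the arms since 0 h was tested directly and gave 14 calls of members over the 7 later times. With array weights there were 71 calls, without the arrays high in squamous epithelium genes 7, and with the actin covariate 6. The test called 7 members at 6 h, all lower (all genes lower: 14.6%), among them Lamc3 (-0.52, SE 0.14, adjusted p = 0.00307) and Lamb1 (-0.38, SE 0.10, adjusted p = 0.0041). At 24 h it called Col14a1 (0.51) and Col6a2 (0.40) upward and Col12a1 (-0.65) and Col4a4 (-0.44) downward, beside 5.49% of all genes. At 2 h Col8a1 (-0.64) and Col6a4 (-0.72) were called downward, beside 6.69% of all genes, and at 72 h Col4a4 (-0.35), beside 2.54% of all genes. Naive mice at 24 h differed from those at 0 h for 5 members by limma, 3 higher and 2 lower. At an unadjusted p under 0.05 there were 10, beside 32.4% of all genes. Col4a3 (0.24), Lamc1 (0.19) and Col25a1 (0.13) were the higher ones, and Col14a1 (-0.36) and Col27a1 (-0.30) the lower ones. For these genes the difference between the arms at 24 h includes this change in naive mice. The arms at 0 h already differed for 8 members, so that the change since 0 h and the difference at a time are separate quantities.

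Chains that share a trimer or a start region were compared across single mice after removal of the group means, over 61 naive and 62 sensitized mice and 9 pairs, with p from 100000 permutations of mice within groups adjusted over the 9 pairs. Col4a1 and Col4a2 gave a Pearson r of 0.94 and a Spearman rho of 0.89, and Col6a1 and Col6a2 gave 0.88 and 0.89 (permutation p = 1e-05 for each, the smallest these permutations can give, and adjusted p = 1e-05). Without the 2 mice farthest from the median these r were 0.92 and 0.86. Lower values came from Lama3 and Lamb3 (r 0.73, rho 0.72), Col5a1 and Col5a2 (r 0.78, rho 0.59), Col1a1 and Col1a2 (r 0.72, rho 0.53), Lama4 and Lamb1 (r 0.64, rho 0.52) and Col4a3 and Col4a4 (r 0.55, rho 0.49), each with the same smallest permutation p. Without the 2 farthest mice their r were 0.75, 0.62, 0.60, 0.51 and 0.48.

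A different result came from the collagen VIII pair, where Col8a1 and Col8a2 gave r -0.09 (permutation p = 0.35, adjusted 0.35) and rho -0.11 (permutation p = 0.24, adjusted 0.26), and r -0.09 without the 2 farthest mice. Lamb1 and Lamc1 gave r 0.39 (permutation p = 0.0014, adjusted 0.0015) but rho 0.10 (permutation p = 0.33, adjusted 0.33), and r was 0.25 without the 2 farthest mice, 0.18 in naive mice and 0.56 in sensitized mice. Over all 861 pairs of members the median r was 0.13, with Col4a1 and Col4a2 in first place and Col4a3 and Col4a4 in place 106. All pairs share the same arrays and their common scale.

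Genes that process, bind or cut these chains were counted from lists by function. Of 13 basement membrane partners, 12 were lower and 1 higher at 6 h (all genes: 33.2% and 24.6%), and 11 lower and 1 higher at 24 h (all genes: 24.9% and 22.8%). At 6 h the lowest were Nid2 (-0.94), a nidogen that bridges laminin to collagen IV, the matricellular protein Smoc1 (-0.82) and Fras1 (-0.79), and the one higher gene was Frem1 (0.39). Among 9 small leucine-rich proteoglycans, which coat and space collagen fibrils, 7 were lower and 1 higher at 24 h, beside the same shares of all genes, and the lowest were Lum (-1.27), Dcn (-1.10) and Omd (-0.93), while Podn was higher (0.39). Of 14 collagen and laminin receptors, 8 were lower and 2 higher at 6 h, beside 33.2% and 24.6% of all genes. The higher ones were the laminin receptor subunit Itga7 (1.02) and the leukocyte collagen receptor Lair1 (0.99), and the lowest were Mrc2 (-0.38), Itga10 (-0.35) and Itga6 (-0.34).

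Of 14 collagen-degrading enzymes and their inhibitors, 8 were higher and 2 lower at 24 h, beside 22.8% and 24.9% of all genes. Mmp12, the macrophage elastase, was higher by 3.67, the inhibitor Timp1 by 3.04 and the collagenase Mmp13 by 2.70, while Timp3 (-0.32) and Timp2 (-0.23) were lower. Of 25 genes of collagen processing and crosslinking, 5 were higher and 6 lower at 24 h, near the shares of all genes. Loxl4, a crosslinking oxidase, was higher (0.56), and Pcolce2 (-0.80), Plod2 (-0.60) and Colgalt2 (-0.56) were the lowest. Of 18 genes of TGF-beta ligands, activators and response, 4 were higher and 6 lower at 24 h, beside 22.8% and 24.9% of all genes. Inhba (1.07), Thbs1 (1.06) and Tgfbi (0.87) were the highest, Ltbp4, Tgfbr3 (-0.59) and Tgfb2 (-0.53) the lowest, and the ligand Tgfb1 was higher by 0.25.

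Cell type markers moved beside the chain genes, and their part in the differences was not tested. Of 15 fibroblast markers, 11 were lower at 6 h (all genes: 33.2%) and 11 at 24 h (all genes: 24.9% lower and 22.8% higher), and their mean signal at 24 h ran from 11.41 to 11.67 in sensitized mice and from 11.88 to 12.01 in naive mice. Of 9 alveolar type I markers, 8 were lower and 1 higher at 24 h (mean signal 12.94 to 13.11 against 13.16 to 13.29), and of 13 endothelial markers, 9 were lower and 1 higher (12.34 to 12.56 against 12.53 to 12.75). Col4a3, Col4a4, Col12a1 and 6 laminin chains were lower at 24 h too. At 168 h, when Col12a1 was still lower, 1 of the 15 fibroblast markers was lower (all genes: 1.41%). Their mean signal was then 11.74 in sensitized and 11.90 in naive mice. Of 9 small leucine-rich proteoglycans, 0 were higher and 2 lower at 168 h, Dcn (-0.85) and Lum (-0.79). Of 9 smooth muscle markers, 4 were higher at 24 h and 6 at 72 h (all genes: 22.2%), among them Actg2 (0.80 and 0.83) and Acta2 (0.41 and 0.47). Their mean signal at 24 h ran from 11.25 to 11.43 in sensitized mice and from 10.97 to 11.18 in naive mice, at a time when Col6a1, Col6a2, Col8a1 and Col15a1 were higher. Cartilage markers, 7 of which were measured, had 6 higher and 1 lower at 96 h (all genes: 21.2% and 20.8%), when Lamc3 and Col20a1 were higher, and the cartilage fibril chain Col2a1 was not called there (0.30, SE 0.21). At 0 h, 4 of 11 skeletal muscle markers were lower (median -1.29) and 2 of 13 squamous epithelium markers (median -1.26), beside 12.3% of all genes, and 7 of the 15 fibroblast markers were lower. Naive replicates 1 and 3 were the 0 h arrays high in squamous and skeletal muscle genes. The group median of the squamous mean signal was 6.45 in naive and 6.49 in sensitized mice. For the skeletal muscle mean signal it was 7.58 in naive and 7.18 in sensitized mice.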

How the data were processed

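Lung total RNA was amplified from its 3′ end and biotin-labelled, per the labels' protocols, which give RNA integrity numbers above 6. The deposited values are log2 signals per probe set and array, made by the authors with RMA according to their processing notes. The usual form of RMA scales arrays to one distribution and compresses low signals. Its version and any probe filter are named in no source used here. Arrays give no counting depth, and their number limits the precision.

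The deposited values cover 25697 probe sets, of which 22478 had a single gene symbol, 259 several and 2950 none. The probe set with the highest mean stood for each of 13053 genes, and 23 of the 42 members had more than 1. No member was lost to a filter on low values, since none was applied. The highest correlation between 2 arrays was 0.9973. With limma 3.58.1 (R 4.3.3, version 1.17.8 of data.table), lmFit and eBayes were run on the arrays of all 16 groups, 1 mean each, which left 107 residual degrees of freedom. Adjusted p-values are Benjamini-Hochberg over all genes within a contrast, except those of the actin measure (exact permutation, over 8 times) and of the partner pairs. Those of the exact permutation test of named differences are adjusted over members and times. The fit was tested on simulated data. Tables and figures were made in Python 3.11.15 (pandas 2.3.3, numpy 2.4.6, matplotlib 3.10.9, scipy 1.17.1). Promoter windows and gene starts are RefSeq's for GRCm38.p6, and 13 members had no window.

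The members and all gene lists were chosen with earlier results of these data known, so no list is independent evidence of its direction. Members named with values are those with the 4 highest and 4 lowest called differences at each time, the 8 with the smallest interaction p, the 5 with the smallest p over time in naive mice, those called at the most times and a panel of common chains. Some genes of that panel were not analysed here. Alternatives were the mean over probe sets, a filter on dim genes, array weights, a trended and robust prior, shifted medians, the actin covariate, fits on 2 groups, a two-sided exact permutation test of each named difference, and leaving out mice or arrays with high squamous or skeletal muscle genes. Replicate numbers follow the order of the samples. No paired analysis was possible because the numbers come from no label and pair no mice across groups.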

Additional observations from a re-analysis of the deposited data

Results flagged for a closer look

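In 5 of the 102 groups examined for the named differences, 1 mouse stood apart from the others by Dixon's criterion, and chance flags about 1 in 20 groups. Naive replicate 8 had the lowest Lamc1 at 0 h, 12.45, with the next mouse at 12.56. Naive replicate 1 had the highest Col17a1 at 6 h, 8.54, with the next at 7.50, and this array was among those high in squamous epithelium genes. Naive replicate 6 had the highest Col6a2 at 6 h, 13.07, with the next at 12.67. Sensitized replicate 1 had the lowest Lama3 at 48 h, 10.73, with the next at 11.22. Naive replicate 4 had the highest Col12a1 at 168 h, 11.15, with the next at 9.79.

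For 8 members, those with the smallest p, the difference between sensitized and naive mice changed with time by the moderated F test of the interaction. Their adjusted p from limma were 1.66e-07 for Col8a1, 1.68e-06 for Lamc3, 2.51e-06 for Col4a4, 1.11e-05 for Col6a2, 0.000207 for Col4a3, 0.000712 for Col14a1, 0.000795 for Col13a1 and 0.000834 for Col6a1. Col8a1 and Col6a2 were higher in sensitized mice from 24 to 96 h and not called at 2 h. Col4a3 and Col4a4 were lower from 6 to 96 h and not called at 2 or 168 h.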

How the results depend on the processing

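The 51 named differences counted here are up to the 4 highest and the 4 lowest called at each time. Of these, 35 kept their direction and their side of the threshold under every alternative run, 16 lost the call under 1 or more, and 0 reversed. Other differences printed above are not in this count, among them Col4a4 at 24 h, Col14a1 at 48 h and Lamc3 at 96 h. Not every alternative reached every one of the 51. The filter on dim genes left 43 of the 51 to be tested, and those at 2 and 6 h were not tested with single mice left out. The count of members called at 2 h, 1 as reported, was 0 without dim genes, 7 with array weights and 2 without arrays high in squamous or skeletal muscle genes (chosen after seeing the data), with shifted medians or with the actin covariate. At 168 h the count of 2 became 7 with array weights, 1 with shifted medians and 0 in a fit on these 2 groups. With array weights the interaction test called 35 members in place of 22, the test over time in naive mice 20 in place of 6, the naive steps 18 in place of 4 and the changes since 0 h 71 in place of 14. Those 14 became 7 without arrays high in squamous genes and 6 with the actin covariate. The 4 naive steps became 1 with the mean over probe sets and 2 without arrays high in skeletal muscle genes, or in either tissue. Within naive mice the Lamb1 and Lamc1 correlation was 0.18 (permutation p = 0.28). With single mice left out, the counts were 4 to 10 at 0 h, 22 to 25 at 24 h, 15 to 19 at 48 h, 19 to 23 at 72 h, 11 to 15 at 96 h and 1 to 2 at 168 h, and this was not run at 2 and 6 h. The 1 member called at 2 h, Col6a4, had a mean signal of 7.28, under the dim gene limit of 8.55, and was absent from the fit without dim genes. Why the other counts move was not tested. Other probe sets of a member agreed in sign in 64 of 65 called differences that could be compared, the exception being Col12a1 at 0 h.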

Other observations

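Other cell type lists were counted in the same way. Of 10 airway club and goblet cell markers, 6 were higher and 2 lower in sensitized mice at 24 h, beside 22.8% and 24.9% of all genes, with a median difference of 1.67. This list joins genes of both cell types. The higher ones were Muc5ac, Muc5b, Clca1, Agr2, Spdef and Foxa3. The lower ones were Scgb3a2 (-0.91) and Cyp2f2 (-0.52), and Scgb1a1 and Foxa2 were not called. Of 6 alveolar type II markers, 1 was higher and 3 lower at 24 h (median -0.10), and of 6 mesothelial markers, 2 were higher and 1 lower (median 0.11). Adipocyte markers, 6 in number, were lower for 5 at 0 h (median -1.32, all genes: 12.3%) and for 5 at 24 h (median -1.24). Of 8 cardiac muscle markers, 2 were lower at 24 h (median -1.11). Of 13 squamous epithelium markers, 1 was higher and 1 lower at 24 h (median -0.71), and of 11 skeletal muscle markers, 1 was lower at 6 h (median -0.85, all genes: 33.2%). Naive replicate 8 at 24 h was high in squamous genes, and the group medians of their mean signal were 6.55 in naive and 6.73 in sensitized mice. At 6 h naive replicates 1 and 8 and sensitized replicate 3 were high in skeletal muscle genes. The group medians there were 7.48 in naive and 7.27 in sensitized mice.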
